A study of Caenorhabditis elegans with 12 samples.

Results

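Small heat shock proteins are chaperones built around an α-crystallin domain that bind unfolding proteins without using ATP and keep them from clumping until the Hsp70 machinery can refold them. In *Caenorhabditis elegans* the HSP-16 proteins are scarce in unstressed animals and are strongly induced by heat and by misfolded protein through the heat shock factor HSF-1. The HSP-12 proteins, SIP-1, HSP-25 and HSP-43 are made without heat, each in its own tissues or stages. The genes looked for here were *hsp-16.1*, *hsp-16.2*, *hsp-16.41*, *hsp-16.48*, *hsp-12.2*, *hsp-12.3*, *hsp-12.6*, *sip-1*, *hsp-25* and *hsp-43*. They were picked by name and not by their values, though with earlier results of these data known. Of these 10 genes, 8 were found among the 19089 genes of the expression table, and *hsp-16.1* and *hsp-16.48* were not analysed here. Of 7 further genes of the family, 6 were found (*hsp-16.11*, *hsp-12.1*, *hsp-17*, *F08H9.3*, *F08H9.4* and *ZK1128.7*), and *hsp-16.49* was not analysed here.

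The libraries came from pools of whole CL2006 worms, a strain in which the *unc-54* promoter drives human Aβ in the body wall muscles and which also carries a *rol-6* marker. All worms carried this transgene, were in their second generation on the given bacteria, and were harvested at day 6 of adulthood. ABPS worms were fed bacteria with double-stranded RNA against Aβ and given the peptide 5MER (MTADV), and AB0S worms were fed the same bacteria and given M9 buffer in its place. EVPS worms were fed bacteria with the empty vector and given 5MER, and EV0S worms were fed the empty vector bacteria and given M9 buffer. The genotype label is "AB RNAi" for the ABPS and AB0S groups and "WT" for the EVPS and EV0S groups, although the WT worms express Aβ. The 4 groups held 3 independent repeats each, 12 libraries in all. The transgene itself was not analysed here, so the knockdown was not checked in these data. Values are read counts that the authors normalized and corrected for the repeats, on a linear scale. The depth behind them is unknown, and their sums, between 24082771 and 29142841 per library, are not depths.

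One library stood apart from its group. A principal component analysis of 15516 genes put 54.5% of the variance on its first axis, where EV0S repeat 3 scored 25.05, against -36.77 and -33.94 for the other EV0S libraries. The AB0S libraries scored 36.13 to 44.86, the EVPS libraries -25 to -21.86, and the ABPS libraries spread between -24.19 and 26.29. The summed level of 8 body wall muscle markers was 103330 in EV0S repeat 3, within the 101135 to 107906 of the AB0S libraries, while the other EV0S libraries had 173686 and 176481. Calls that involve EV0S are therefore also given without this library. It was singled out from these same values, as the EV0S library nearest to AB0S on this axis. Leaving it out thus narrows the EV0S spread and widens the gap to AB0S there by construction. Without it 6524 genes passed in AB0S over EV0S, against 15 without EV0S repeat 1 and 10 without EV0S repeat 2. Calls that hold or appear without it are therefore no independent support.

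The 8 genes sit in few places of the WBcel235 genome (Ensembl release 115 annotation), and all are protein coding. *hsp-16.2* (WBGene00002016) lies on chromosome V at 1804334 to 1804957 on the reverse strand, and *hsp-16.41* (WBGene00002018) at 1805178 to 1805875 on the forward strand. They are transcribed away from each other, with 220 bases between the genes. *hsp-12.3* (WBGene00002012) at 9444791 to 9445507 and *hsp-12.6* (WBGene00002013) at 9446229 to 9447228 are neighbours on the reverse strand of chromosome IV, 721 bases apart. *hsp-12.2* (WBGene00002011) lies on chromosome III at 8138077 to 8139631, *sip-1* (WBGene00004798) on chromosome III at 10506106 to 10506801, *hsp-25* (WBGene00002023) on chromosome X at 6034463 to 6039644, and *hsp-43* (WBGene00002024) on chromosome X at 6233151 to 6235543. The annotation places *C14B9.8* opposite *hsp-12.2*, *F43D9.8* opposite *sip-1* and *ipp-5* opposite *hsp-25*. Whether reads were counted by strand is not given in the sources used here, so the values of these 3 genes may include reads of the overlapping gene. *hsp-16.11* (WBGene00002017, named *hsp-16.1* in the newer annotation) lies on chromosome V at 9090077 to 9090604, in an inverted repeat with *hsp-16.1*, *hsp-16.48* and *hsp-16.49*. Some *hsp-16* genes are close copies of others, and counting can split or drop shared reads. How far this holds for each of them was not examined, so their values are uncertain to an unknown degree.

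*sip-1*, which encodes a small heat shock protein of oocytes and embryos, stood far above the rest of the family. Scaled to exon length, *sip-1* averaged 86799 normalized units per kb over the 12 libraries, 44.05-fold above the next gene and 91.83% of the sum over the 8 genes. *hsp-43* followed with a mean of 1970.4 per kb, *hsp-25* with 1848, *hsp-16.41* with 1414, *hsp-12.2* with 1392 and *hsp-16.2* with 957. Over the libraries *hsp-16.2* reached at most 1471.5 per kb, below the lowest *hsp-43* library at 1558.5 and the lowest *hsp-25* library at 1518.4, while neighbours in this order overlapped in range. *hsp-12.3* averaged 98.4 per kb and *hsp-12.6* 41.8 per kb. The highest library of *hsp-12.3*, at 148 per kb, lay below the lowest of *hsp-16.2*, at 588 per kb, while the ranges of *hsp-12.3* (56.9 to 148 per kb) and *hsp-12.6* (23.6 to 78.8 per kb) overlapped. Among the further genes, *F08H9.3* and *F08H9.4* averaged 9.64 and 5.88 per kb.

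**Figure D1:**
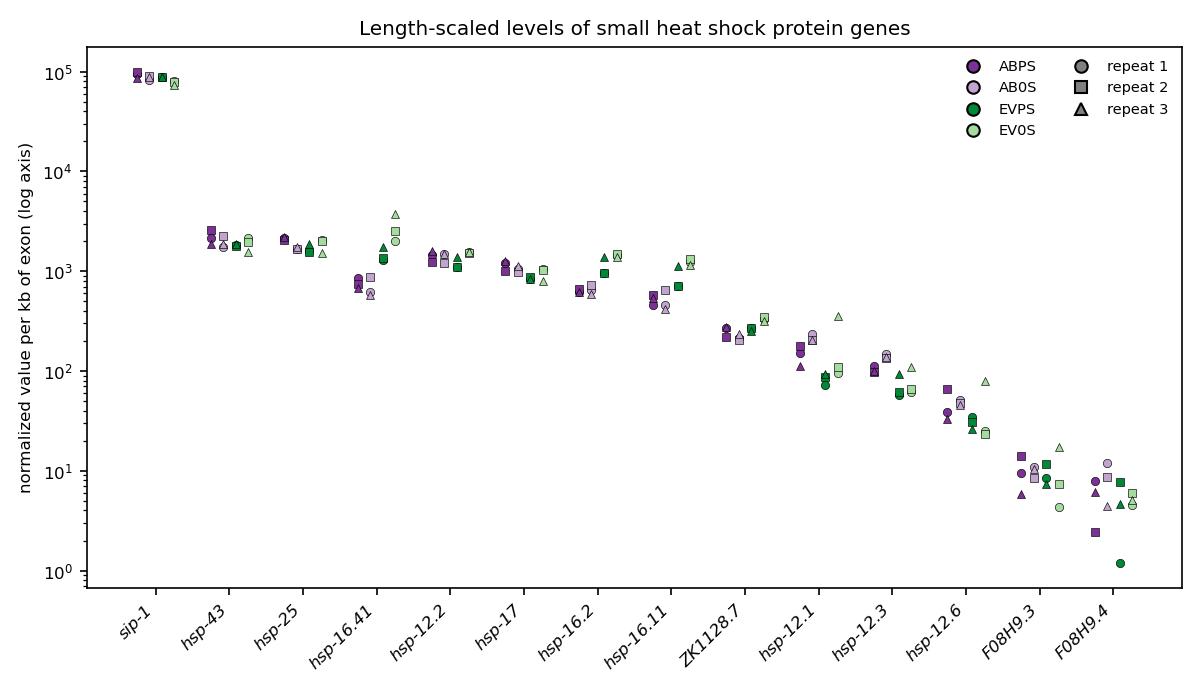
Normalized value per kb of exon (log axis) of the 8 small heat shock protein genes and 6 further genes of the family, with 1 point per library, coloured by group and shaped by repeat. *sip-1* lies above 73411 per kb in every library, and *hsp-16.41* has the widest range among the 5 genes that follow it, 573 to 3715 per kb.

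The *hsp-16* genes, the stress-inducible branch of the family, were lowest where Aβ was targeted by RNAi and highest in EV0S worms. *hsp-16.2* had 362, 384 and 358 normalized units in repeats 1, 2 and 3 of ABPS worms, 376, 424 and 339.6 in AB0S worms, 555, 561 and 799.6 in EVPS worms, and 834, 851 and 795 in EV0S worms. All 6 libraries with Aβ RNAi lay below all 6 with the empty vector, and EVPS repeat 3 reached the EV0S range. *hsp-16.41*, in the same order of repeats, had 545, 479.7 and 433 in ABPS worms, 399, 557 and 367 in AB0S worms, 828, 877 and 1116 in EVPS worms, and 1273, 1604 and 2378 in EV0S worms. Here the ABPS and AB0S libraries overlapped, the EVPS libraries all lay above them, and the EV0S libraries all lay above the EVPS libraries. The ratio of *hsp-16.41* to *hsp-16.2* was 2.99 in EV0S repeat 3 and between 1.06 and 1.89 in the other 11 libraries. *hsp-16.11* had 221, 272 and 256 in ABPS worms, 219, 306 and 200.2 in AB0S worms, 337, 337 and 543 in EVPS worms, and 588, 631 and 550.3 in EV0S worms, so the libraries of both RNAi groups again lay below all others. Over all genes, the AB0S libraries all lay below the EV0S libraries in 14.1%. The ABPS libraries all lay below the EVPS libraries in 15.1%, and the EVPS libraries below the EV0S libraries in 12.4%. The share with both RNAi groups below both others was not computed.

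**Figure D2:**
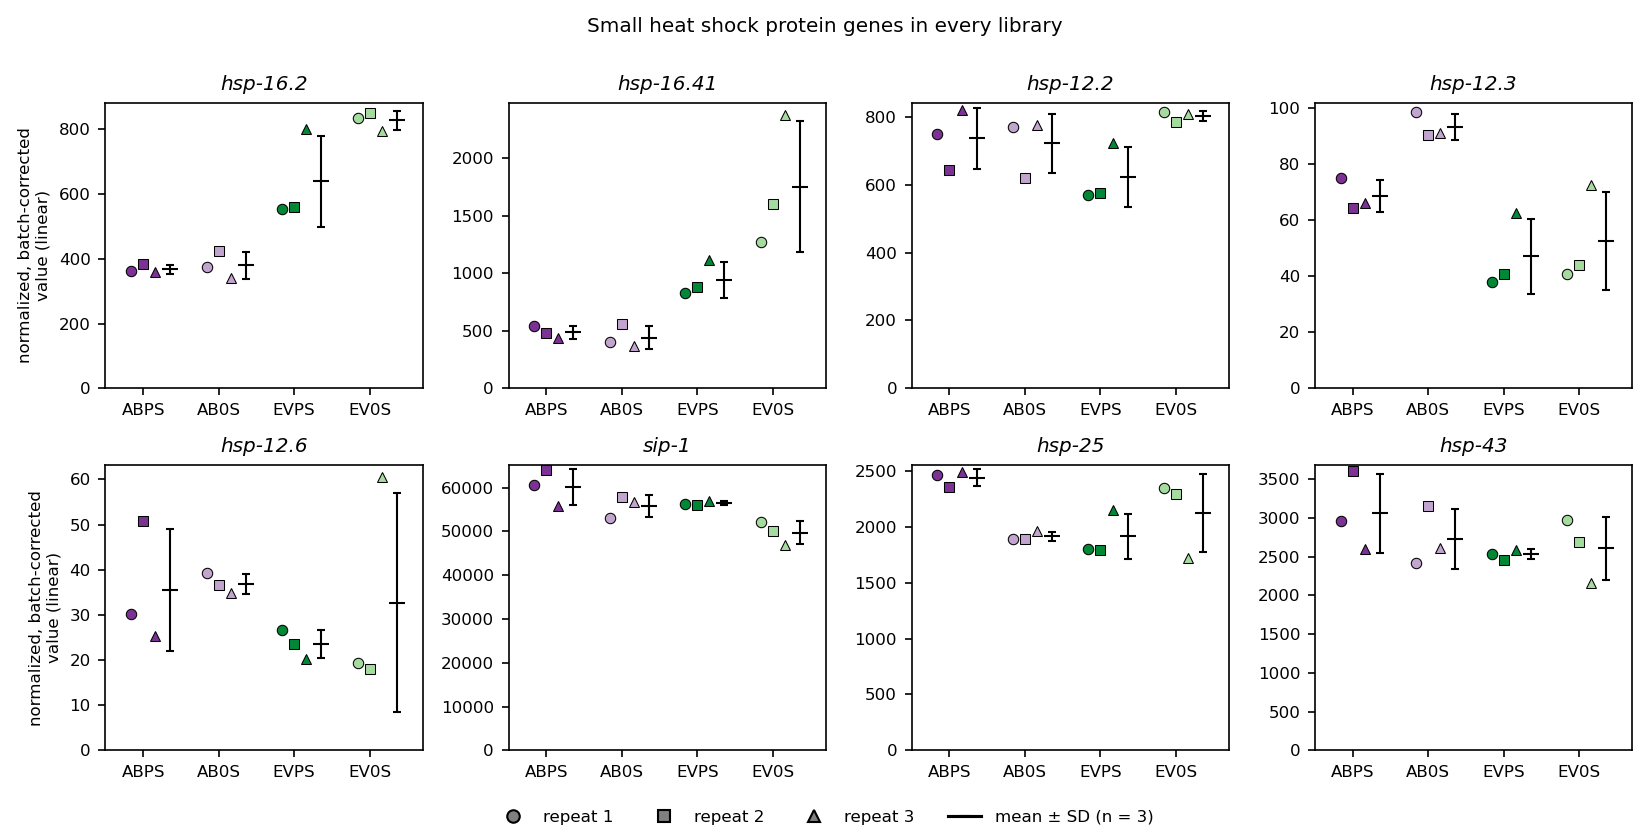
Normalized, batch-corrected value (linear axis from 0) of the 8 genes in each library of the 4 groups, with points shaped by repeat and bars for the mean ± SD of 3 libraries. The 6 *hsp-16.2* libraries with Aβ RNAi sit between 339.6 and 424, below the 555 to 851 of the empty vector libraries, and EV0S repeat 3 is the highest library of *hsp-16.41* and *hsp-12.6*.

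The comparison of AB0S with EV0S worms asks what Aβ RNAi does without peptide. *hsp-16.41* fell to 441 ± 102 in AB0S worms, against 1751 ± 567 in EV0S worms (SD, n = 3 each). *hsp-16.2* fell to 379.8 ± 42.3 in AB0S worms, against 827 ± 28.6 in EV0S worms (SD, n = 3 each). On the log2(value + 1) scale, on which the changes of low genes are understated, limma gave -1.96 for *hsp-16.41* (SE 0.22, Benjamini-Hochberg adjusted p = 0.0107) and -1.13 for *hsp-16.2* (SE 0.14, adjusted p = 0.0165), with all 3 repeats lower in both. *hsp-12.3* rose by 0.86 (SE 0.22, adjusted p = 0.0604). At an adjusted p below 0.1, 3 of the 8 genes passed, 1 higher and 2 lower, beside 11.1% of all genes (2.82% higher and 8.26% lower). After rescaling by TMM factors the calls over all genes were 1263 higher and 1719 lower, in place of 538 higher and 1576 lower. The median log2 change of the 8 genes was -0.03, against 0.03 over all genes. In whole worms, fewer cells of a type and less RNA per cell cannot be told apart.

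The remaining genes of the list did not pass between AB0S and EV0S worms. *hsp-12.2*, *hsp-25*, *hsp-43* and *sip-1* had log2 changes of -0.16, -0.14, 0.07 and 0.17 with limma adjusted p between 0.27 and 0.787. Their 95% intervals reached no lower than -0.40 and no higher than 0.36, so a change as large as that of *hsp-16.2* lay outside them. *hsp-12.6* had 0.39, with a 95% interval of -0.59 to 1.37 that leaves larger changes possible. Among the further genes, *hsp-16.11* fell to 0.405-fold (adjusted p = 0.0168) and *ZK1128.7* to 0.654-fold (adjusted p = 0.0283), and these were the 2 of 6 that passed. Without EV0S repeat 3 these log2 changes were -1.40 (adjusted p = 0.00117) and -0.68 (0.00267).

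Without EV0S repeat 3, *hsp-16.41* fell by 1.69 and *hsp-16.2* by 1.18 (limma adjusted p = 0.000277 and 0.000658). In that fit 6 of the 8 genes passed, with *hsp-12.6* (1.05), *hsp-25* (-0.32) and *hsp-12.2* (-0.24) added, beside 34.2% of all genes. The *hsp-16.41* call held in each of 20 alternatives, with adjusted p between 0.000277 and 0.0921. The *hsp-16.2* call was lost without EV0S repeat 1 (-1.08, adjusted p = 0.1) and without EV0S repeat 2 (-1.11, adjusted p = 0.115). *hsp-12.3* rose by 1.06 without EV0S repeat 3 (adjusted p = 0.00625), and its call was lost in 8 of 20 alternatives. Markers of other tissues moved in the same comparison. The 10 sperm markers summed to 1792 to 2033 in AB0S worms, against 2520 to 6634 in EV0S worms, with 7 of 10 called lower. The 8 muscle markers summed to 101135 to 107906 in AB0S worms, against 103330 to 176481 in EV0S worms, with 1 of 8 called lower. The 6 hypodermis markers, which include *rol-6*, the gene also carried as the marker of the strain, summed to 9080 to 10256 in AB0S worms, against 13929 to 17182 in EV0S worms, with 2 of 6 called lower. *rol-6* alone had 2950 to 3182 in AB0S worms, against 7109 to 9579 in EV0S worms. The median log2 change of the 6 hypodermis markers was -0.05, so the fall of their sum was not one of the list as a whole. Of the oocyte and early embryo markers 1 of 12 and of the zygotic embryo markers 1 of 7 was called higher, and no intestine or neuron marker was called. No marker in the table was at 0 throughout. With the level of the *msp* sperm genes in the model, limma gave -2.24 for *hsp-16.41* (adjusted p = 0.0149) and -1.02 for *hsp-16.2* (adjusted p = 0.0669). In that fit *hsp-12.3* (0.63, adjusted p = 0.314), *hsp-16.11* (-1.13, 0.113) and *ZK1128.7* (-0.46, 0.2) did not pass. Over all genes 123 passed, in place of 2114. The sperm marker sums did not overlap between the groups, so this fit hardly separates them from the RNAi. The part of the muscle and hypodermis markers was not tested.

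**Figure D3:**
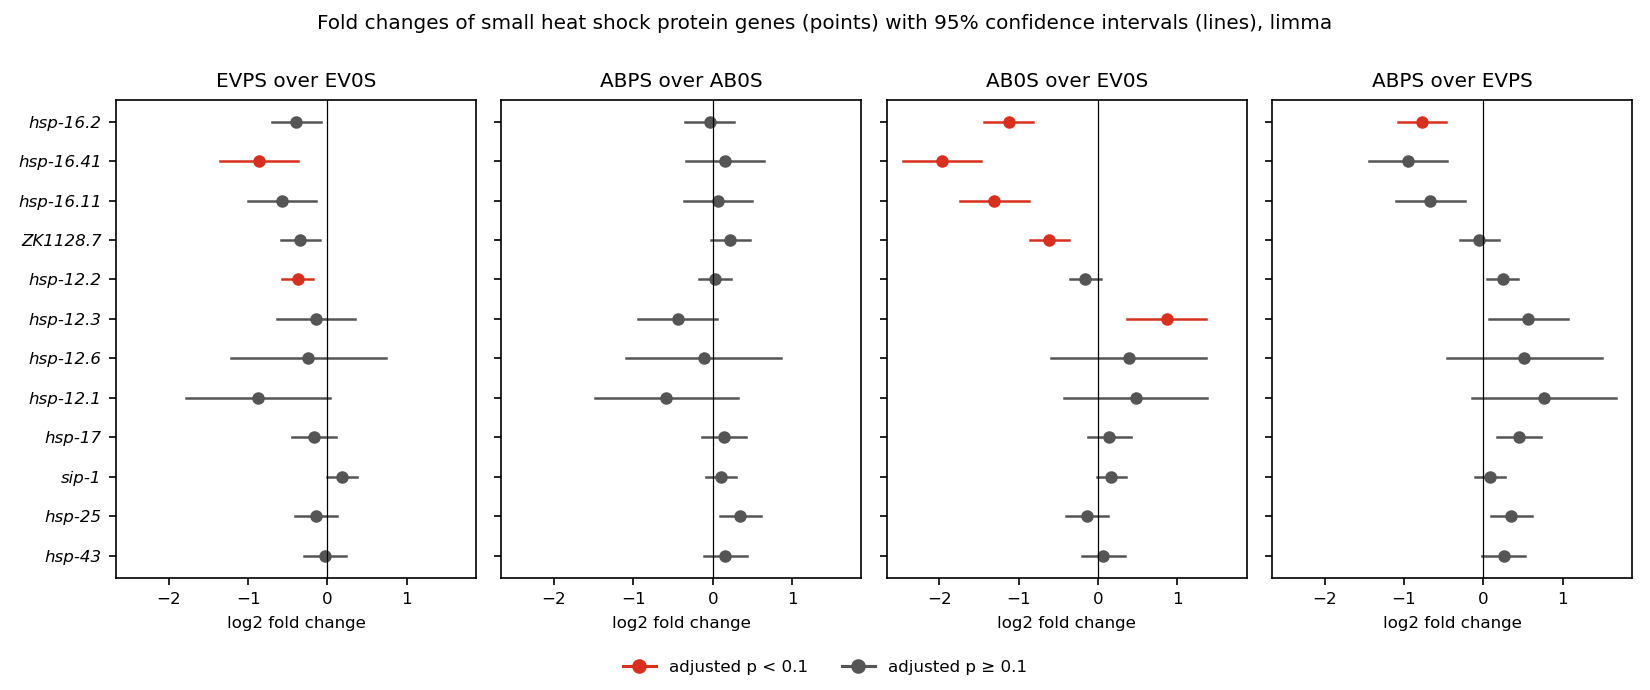
Log2 fold changes (points) with 95% confidence intervals (lines) from limma for the 8 genes and 4 further genes of the family in the 4 comparisons, with the group named first over the group named second. In red are genes with an adjusted p below 0.1. The *hsp-16* genes lie left of 0 in AB0S over EV0S, between -1.96 and -1.13, while no gene is red in ABPS over AB0S.

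The comparison of EVPS with EV0S worms asks what the peptide does while Aβ is expressed. *hsp-16.41* fell to 940.3 ± 155 in EVPS worms, against 1751 ± 567 in EV0S worms (SD, n = 3 each). *hsp-12.2* had 568, 576 and 724 in EVPS worms, against 815, 785 and 808 in EV0S worms. Its EVPS libraries all lay below its EV0S libraries, as for 12.4% of all genes. The log2 changes were -0.86 for *hsp-16.41* (SE 0.22, limma adjusted p = 0.0738) and -0.37 for *hsp-12.2* (SE 0.09, adjusted p = 0.0622), lower in all 3 repeats for each. HSP-12.2 is one of the short members of the family, with cut-down ends around the α-crystallin domain. These were 2 of the 8 genes, both lower, beside 7.33% of all genes (1.82% lower and 5.51% higher). *hsp-16.2* averaged 638 ± 140 in EVPS worms and 827 ± 28.6 in EV0S worms (SD, n = 3 each), a log2 change of -0.39 that did not pass (adjusted p = 0.151). Its log2 differences were -0.59 and -0.60 in repeats 1 and 2 and 0.01 in repeat 3. None of the 6 further genes passed, with *hsp-16.11* at -0.57 (adjusted p = 0.139) and *ZK1128.7* at -0.34 (adjusted p = 0.122), although both passed without EV0S repeat 3 (-0.66, adjusted p = 0.0815, and -0.41, adjusted p = 0.0682). The median over the 8 genes was -0.19, against -0.05 over all genes.

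The peptide calls with the empty vector rested on single libraries. Without EV0S repeat 3, *hsp-16.41* had -0.59 (limma adjusted p = 0.0747), *hsp-12.2* -0.45 (0.0215), *hsp-16.2* -0.45 (0.0983) and *hsp-25* -0.32 (0.0216), so that 4 of 8 genes passed, all lower, beside 13.8% of all genes (7.18% lower). Leaving out EV0S repeat 1 or 2, or EVPS repeat 1 or 2, left 0 of 8 genes past the threshold, and also 0 of all 19089 genes. Without EVPS repeat 3, *hsp-16.2* fell by 0.61 (adjusted p = 0.0414) and *hsp-16.41* missed the threshold (-0.98, adjusted p = 0.11). Markers of oocytes and early embryos were higher in the same comparison, with a sum over 12 genes of 285853 to 309609 in EVPS worms, against 219056 to 270486 in EV0S worms, 7 of 12 called, and no marker at 0 throughout. With their level in the model, *hsp-16.41* had 0.20 in place of -0.86 (adjusted p = 0.72) and *hsp-12.2* had -0.46 (adjusted p = 0.254). Their level did not overlap between the 2 groups, so this fit hardly separates it from the peptide, and its part in these changes is not settled.

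In worms with Aβ RNAi, the peptide moved none of these genes past the threshold. In ABPS against AB0S worms, 0 of the 8 genes and 0% of all genes had a limma adjusted p below 0.1, while 1 of the 8 and 3034 of the 19089 genes had an unadjusted p below 0.05. *hsp-16.2* averaged 368 ± 13.9 in ABPS worms and 379.8 ± 42.3 in AB0S worms (SD, n = 3 each), a log2 change of -0.04 with a 95% interval of -0.35 to 0.27. *hsp-16.41* averaged 486 ± 56.3 in ABPS worms and 441 ± 102 in AB0S worms (SD, n = 3 each), a change of 0.16 with an interval of -0.33 to 0.65. *hsp-25*, whose protein is known from the dense bodies and M-lines of body wall muscle, was the 1 gene with an unadjusted p below 0.05. It had 2465, 2349.8 and 2492 in ABPS worms, against 1889, 1887 and 1962 in AB0S worms. The groups did not overlap, as for 2 of the 8 genes and 29.4% of all genes, and the change of 0.35 (SE 0.12) did not pass over all genes (limma adjusted p = 0.279). The 8 muscle markers summed to 121115 to 158885 in ABPS worms, against 101135 to 107906 in AB0S worms, and the 10 sperm markers to 2370 to 6734 in ABPS worms, against 1792 to 2033 in AB0S worms, with no overlap in either and no marker called. The *hsp-25* change was 0.10 once the *msp* level entered the model (adjusted p = 0.844). As the sperm marker sums did not overlap between these groups, that fit hardly separates them from the peptide. The part of the muscle markers was not tested. The other gene without overlap was *hsp-12.3*, with 75.1, 64.6 and 66.2 in ABPS worms, against 98.7, 90.5 and 91.0 in AB0S worms (log2 change -0.44, adjusted p = 0.351).

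Whether the peptide acted differently with the empty vector and with Aβ RNAi was tested as an interaction, the EVPS over EV0S change minus the ABPS over AB0S change. None of the 8 genes passed, beside 2.98% of all genes. While 3457 of the 19089 genes had an unadjusted p below 0.05, 3 of the 8 did. These were *hsp-16.41* (-1.02, SE 0.31, limma adjusted p = 0.146), *hsp-12.2* (-0.40, SE 0.12, adjusted p = 0.147) and *hsp-25* (-0.49, SE 0.17, adjusted p = 0.178). Without EV0S repeat 3 the same 3 genes passed, at -0.75 (adjusted p = 0.0549), -0.48 (0.0185) and -0.67 (0.00123), beside 25.7% of all genes. With all 12 libraries the 95% interval of the *hsp-16.41* difference ran from -1.71 to -0.32, and that of *hsp-16.2* from -0.79 to 0.08.

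Between ABPS and EVPS worms, which differ in the RNAi under peptide, *hsp-16.2* fell to 368 ± 13.9 in ABPS worms, against 638 ± 140 in EVPS worms (SD, n = 3 each). Its log2 change was -0.77 (SE 0.14, limma adjusted p = 0.0987), and it was the 1 of the 8 genes that passed, beside 0.272% of all genes (0.0576% lower). *hsp-16.41* had a larger change of -0.94 with a wider error (SE 0.22, adjusted p = 0.162), lower in all 3 repeats. Its ABPS libraries all lay below its EVPS libraries, as for 15.1% of all genes. The *hsp-16.2* call sat at the threshold and was lost in 9 of 20 alternatives, among them without EVPS repeat 1 or 2 and without ABPS repeat 1 or 2. The 6 hypodermis markers, again with *rol-6* among them, summed to 10464 to 12202 in ABPS worms, against 14820 to 15704 in EVPS worms. Of these, 1 of 6 was called lower, and their median log2 change was -0.18. The 7 zygotic embryo markers summed to 305 to 427 in ABPS worms, against 231 to 236 in EVPS worms, with none called, and 1 of 8 muscle markers was called higher. Their part in the *hsp-16.2* change was not tested. EVPS worms serve in this comparison and in that with EV0S, and AB0S worms in 2 comparisons as well, so the comparisons are not independent of each other.

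The constitutive members varied less. *sip-1* had 60587, 64104 and 55768 in ABPS worms, 53034, 57846 and 56684 in AB0S worms, 56307, 56108 and 57038 in EVPS worms, and 52113, 50047 and 46983 in EV0S worms. The EV0S libraries were the 3 lowest of the 12, but the *sip-1* change did not pass in AB0S over EV0S (0.17, limma adjusted p = 0.27) or in EVPS over EV0S (0.19, adjusted p = 0.262). Without EV0S repeat 3 it did not pass either (0.14, adjusted p = 0.159, and 0.16, adjusted p = 0.187). Over all genes, the AB0S libraries all lay above the EV0S libraries in 12.9%, and the EVPS libraries did so in 14.9%. *hsp-43*, which encodes a longer, not heat-inducible member of the family, had 2953, 3609 and 2604 in ABPS worms, 2415, 3152 and 2613 in AB0S worms, 2538, 2458 and 2591 in EVPS worms, and 2969, 2687 and 2158 in EV0S worms. The groups of *hsp-43* overlapped, except that the ABPS libraries lay above the EVPS libraries. *hsp-25* had 1803, 1787 and 2146 in EVPS worms and 2344, 2296 and 1722 in EV0S worms, so that EV0S repeat 3 was the lowest and the other EV0S libraries lay above all EVPS libraries.

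*hsp-12.3* and *hsp-12.6*, the neighbours on chromosome IV, followed another pattern. *hsp-12.3* had 75.1, 64.6 and 66.2 in ABPS worms, 98.7, 90.5 and 91.0 in AB0S worms, 37.8, 40.98 and 62.5 in EVPS worms, and 40.8, 44.2 and 72.7 in EV0S worms. The AB0S libraries lay above the other 9. Over all genes, they all lay above the EV0S libraries in 12.9% and above the ABPS libraries in 14.5%. *hsp-12.6*, a known target of the insulin-regulated factor DAF-16, had 30.1, 50.9 and 25.4 in ABPS worms, 39.2, 36.5 and 34.9 in AB0S worms, 26.7, 23.6 and 20.3 in EVPS worms, and 19.4, 18.1 and 60.6 in EV0S worms. EV0S repeat 3 was thus the highest of the 12 libraries and the other EV0S libraries were the lowest. *hsp-12.1*, another short member, had 74.7, 88.0 and 55.3 in ABPS worms, 117.6, 103 and 103 in AB0S worms, 36.4, 42.9 and 46.1 in EVPS worms, and 47.0, 54.5 and 177.6 in EV0S worms. Over the 12 libraries the log2 levels of *hsp-12.6* and *hsp-12.1* had a Pearson r of 0.854, and those of *hsp-12.3* and *hsp-12.1* 0.799. The neighbours *hsp-12.3* and *hsp-12.6* had a lower r of 0.617 with each other, and *hsp-12.6* had 0.805 with *F08H9.3*. In EV0S repeat 3, *hsp-12.6* and *hsp-12.1* thus lay above every AB0S library and *hsp-12.3* lay between the other EV0S libraries and the AB0S libraries, while *hsp-16.2* at 795 and *hsp-16.41* at 2378 stayed with the EV0S libraries, above every AB0S library.

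**Figure D4:**
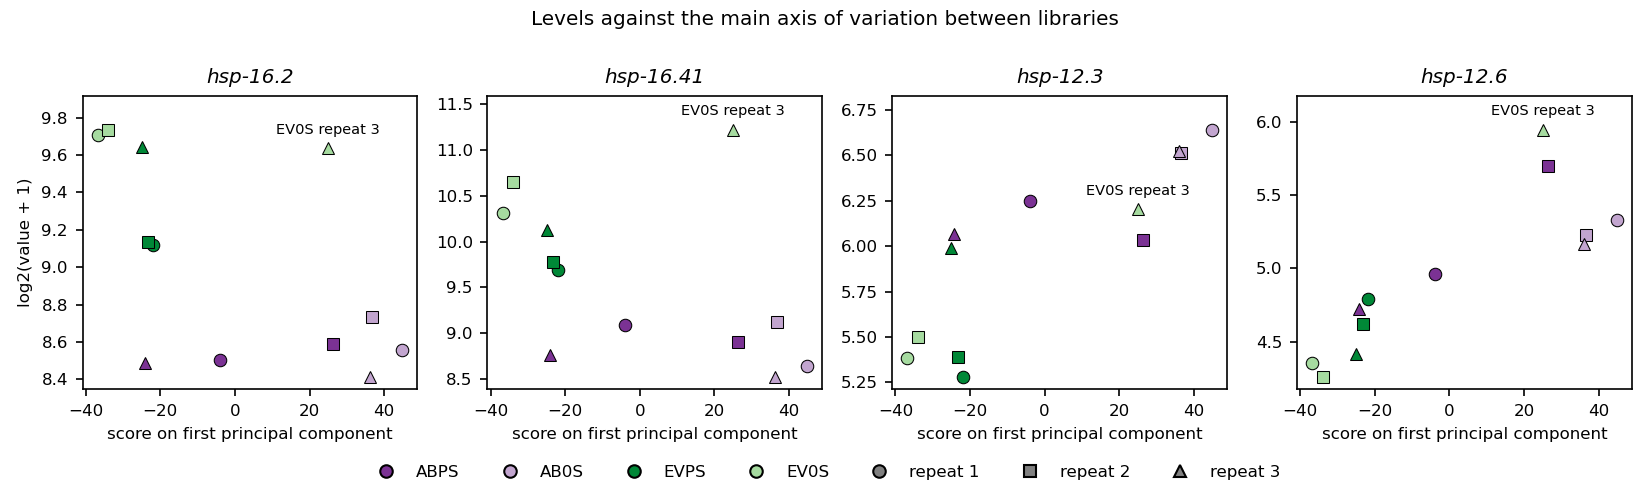
Log2(value + 1) of *hsp-16.2*, *hsp-16.41*, *hsp-12.3* and *hsp-12.6* against each library's score on the first principal component of 15516 genes, coloured by group and shaped by repeat. EV0S repeat 3, at a score of 25.05, is high for the *hsp-16* genes and the highest for *hsp-12.6*, whereas the AB0S libraries, at 36.13 to 44.86, are low for the *hsp-16* genes and high for *hsp-12.3* and *hsp-12.6*.

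Levels of the *hsp-16* genes went together across libraries. The Pearson r of log2 levels was 0.943 between *hsp-16.41* and *hsp-16.2* and 0.981 between *hsp-16.2* and *hsp-16.11*, over 12 libraries that share their groups. Whether these genes also share reads was not examined. The 5 genes most like the mean of *hsp-16.2* and *hsp-16.41*, out of 15503 searched, were *C27D9.2* (r = 0.951), *clhm-1* (0.939), *slc-28.1* (0.933), *hsp-70* (0.93) and *C49H3.16* (0.924). Most like *sip-1* were *Y39B6A.10* (0.974), *mrg-1* (0.959), *clec-91* (0.957), *pcn-1* (0.953), which encodes the replication clamp PCNA, and *rnh-2* (0.947). Most like *hsp-12.6* were *K09A9.8* (0.973), *Y52B11A.20* (0.959), *C47D12.4* (0.95), *txbp-3* (0.942) and *mig-2* (0.941).

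The heat shock pathway was read from 18 genes, *hsf-1* and its regulators, Hsp70 and Hsp90 chaperones and their co-chaperones. In AB0S against EV0S worms 1 of 18 was called higher and 5 lower, beside 2.82% of all genes higher and 8.26% lower. Among the lower ones, *hsp-70* (*C12C8.1*), *F44E5.4* and *F44E5.5* encode inducible Hsp70 proteins. *hsp-70* had 626, 784 and 575 in AB0S worms, against 1505, 1506 and 1235 in EV0S worms (log2 change -1.10, SE 0.18, limma adjusted p = 0.0213). *F44E5.4* fell to 0.357-fold (adjusted p = 0.0393) and *F44E5.5* to 0.388-fold (adjusted p = 0.0448), and these neighbours are near-identical copies whose reads cannot be assigned with certainty. *unc-45*, a myosin chaperone, fell by 0.37 (adjusted p = 0.0851) and *unc-23*, a muscle co-chaperone of the BAG family, by 0.45 (adjusted p = 0.0541). *hsf-1* itself rose, with 3787, 3646 and 3891 in AB0S worms, against 3148, 3243 and 3111 in EV0S worms (0.25, SE 0.06, adjusted p = 0.0497). Each of these 6 calls lost the threshold in 3 to 9 of 20 alternatives. All 6 held without EV0S repeat 3, with *hsp-70* at -1.24, *F44E5.4* at -1.29, *F44E5.5* at -1.09, *unc-45* at -0.55, *unc-23* at -0.56 and *hsf-1* at 0.23 (adjusted p between 0.000123 and 0.0221). With *msp* level as a covariate none of the 6 passed, and *unc-45* was at -0.10 and *unc-23* at -0.19. Over all genes 123 passed in that fit, in place of 2114, and it hardly separates the sperm level from the RNAi. *hsb-1*, *ddl-1* and *ddl-2*, whose products bind and restrain HSF-1, had changes of 0.14, 0.07 and 0.06 and did not pass (adjusted p between 0.184 and 0.743), and *hsp-1*, the constitutive Hsp70 gene, had -0.06 (adjusted p = 0.854).

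**Figure D5:**
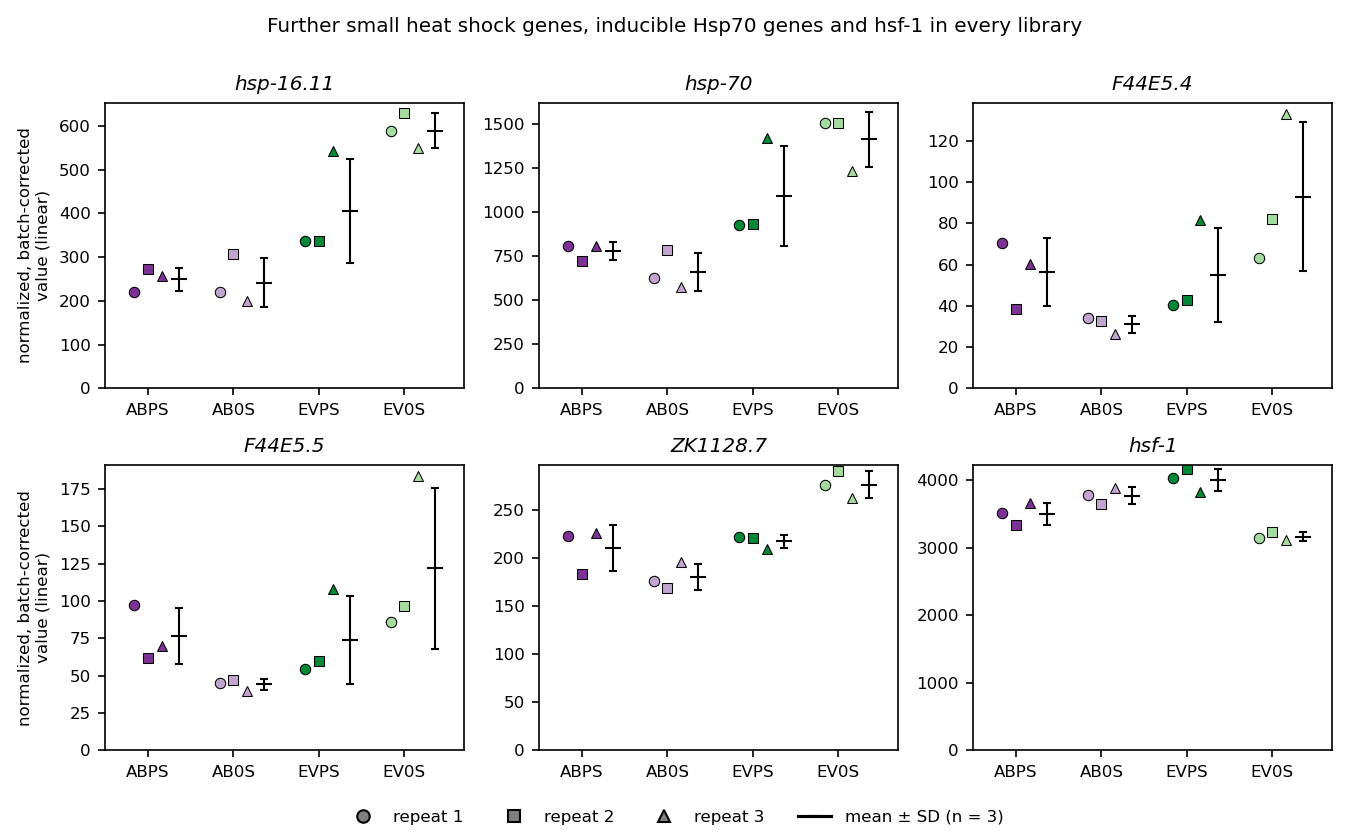
Normalized, batch-corrected value (linear axis from 0) of *hsp-16.11*, the inducible Hsp70 genes *hsp-70*, *F44E5.4* and *F44E5.5*, *ZK1128.7* and *hsf-1* in each library of the 4 groups, with points shaped by repeat and bars for the mean ± SD of 3 libraries. *hsp-70* lies between 575 and 784 in AB0S worms and between 1235 and 1506 in EV0S worms, while *hsf-1* is lowest in EV0S worms, at 3111 to 3243.

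In EVPS against EV0S worms 1 of the 18 genes was called higher and 1 lower, beside 5.51% of all genes higher and 1.82% lower. *hsf-1* rose, with 4031, 4165 and 3833 in EVPS worms, against 3148, 3243 and 3111 in EV0S worms (0.34, SE 0.06, limma adjusted p = 0.0511), and *unc-23* fell by 0.40 (adjusted p = 0.0815). Each of these calls was lost in 8 of 20 alternatives. With the level of the oocyte markers in the model *hsf-1* was at 0.22 (adjusted p = 0.322) and *unc-23* at -0.53 (adjusted p = 0.271). That level did not overlap between these groups, so this fit hardly separates it from the peptide. Without EV0S repeat 3 both genes passed, at 0.32 (0.0215) and -0.51 (0.0216). *hsp-70* had 926, 935 and 1421 in EVPS worms, against 1505, 1506 and 1235 in EV0S worms, and did not pass (-0.40, adjusted p = 0.259), but passed without EV0S repeat 3 (-0.54, adjusted p = 0.0923). EVPS repeat 3 was the highest EVPS library for *hsp-70*, *hsp-16.2*, *hsp-16.41*, *hsp-16.11*, *F44E5.4* and *F44E5.5*. No gene of the 18 passed in ABPS against AB0S worms, in which 3 had an unadjusted p below 0.05, beside 3034 of the 19089 genes. The median changes of the 18 genes were -0.02 in EVPS over EV0S and -0.05 in AB0S over EV0S, against -0.05 and 0.03 over all genes.

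Of 17 genes listed around DAF-16 (its own gene, *daf-2*, *pqm-1* and genes taken as targets), 16 were in the table. In EVPS against EV0S worms *daf-2*, the insulin receptor gene, rose by 0.33 (limma adjusted p = 0.0763), *dod-3* rose by 0.64 (0.0593) and *icl-1*, a glyoxylate cycle enzyme, fell by 0.41 (0.0684), 3 of 16 genes beside 7.33% of all genes. These calls were lost in 9, 9 and 8 of 20 alternatives. With the level of the oocyte markers in the model *daf-2* was at 0.11 (adjusted p = 0.75), *dod-3* at 0.59 (0.336) and *icl-1* at -0.26 (0.516). Here too the fit hardly separates that level from the peptide. Without EV0S repeat 3 all 3 genes passed (0.30, 0.55 and -0.43). In AB0S against EV0S worms *dod-3* rose by 0.97 (adjusted p = 0.0167) and the lipase gene *lipl-4* fell by 0.54 (adjusted p = 0.0994), 2 of 16 genes beside 11.1% of all genes. The *lipl-4* call was lost in 12 of 20 alternatives, with changes as small as -0.33 and adjusted p up to 0.372, and the *dod-3* call in 2 of 20. Both passed without EV0S repeat 3 (0.88 for *dod-3* and -0.61 for *lipl-4*). No gene of the list passed in ABPS against AB0S or ABPS against EVPS worms. *hsp-12.6*, which was not in that list, passed in none of the comparisons over the 12 libraries.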

How the data were processed

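RNA from pools of whole CL2006 worms was sequenced as stranded polyA libraries, 3 per group, and all 12 were used, grouped by their labels. Per the labels and the study's methods, the authors removed adaptors and poor ends (fastx_toolkit, cutadapt 2.10), mapped the reads to WBcel235 (TopHat2 2.1.1), counted them per gene (HTSeq 2.01), divided the counts by DESeq2 1.36.0 size factors and corrected the result for the 3 repeats by a method that is not given in the sources used here. The deposited values are therefore a score on a linear scale and not counts. Of 229068 values, 307 were below 0, the lowest -0.64. A count test was not used, and the depth and the precision it gives are unknown. That correction reduced the spread between repeats before deposit, so p-values may be too small.

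Negative values were raised to 0. A linear model of log2(value + 1) on group and repeat was then fitted to all 19089 genes (limma 3.58.1, R 4.3.3, eBayes with a mean-variance trend). Benjamini-Hochberg adjusted p-values below 0.1, the study's threshold, were called. An exact permutation test of 3 against 3 libraries cannot give a p below 0.1. The repeat number marks a repeat of the whole procedure in the study's methods, so it entered as a block. Deviations from the group means had a mean correlation of -0.181 between libraries of the same repeat and 0.092 between others, over 15516 genes with a mean of at least 10, after the authors' correction.

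The genes, the further lists and the rule for naming genes (all listed genes found that pass, up to 4 others per list, and the 5 genes with the most similar levels) were chosen with earlier results of these data known. Positions and exon lengths came from Ensembl 115, which held 19085 of the genes. The alternatives changed pseudocount, low-value filter, block, libraries, scaling (trimmed mean of M values, TMM, or quantile), eBayes, threshold and marker covariates, and left out each library in turn. The alternative that keeps values below 0 was chosen after seeing the data. The analysis was tested on simulated data. Python 3.11.15, pandas 2.3.3, numpy 2.4.6 and matplotlib 3.10.9 made tables and plots. No sequences were used here.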

Additional observations from a re-analysis of the deposited data

Results flagged for a closer look

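The limma interaction tested whether the peptide effect differed between worms on the empty vector and worms on Aβ RNAi. Of all 19089 genes 2.98% passed, among them 2 of the 18 heat shock pathway genes and 2 of the 16 genes of the DAF-16 list. Each value is the EVPS over EV0S change minus the ABPS over AB0S change on the log2 scale. *hsf-1* had 0.4461 (adjusted p = 0.0772), from 0.34 with the empty vector and -0.11 with Aβ RNAi. *unc-23* had -0.7504 (adjusted p = 0.0775), from -0.40 and 0.35. *daf-2* had 0.5312 (adjusted p = 0.0865), from 0.33 and -0.20, and *dod-3* had 1.3337 (adjusted p = 0.0707), from 0.64 and -0.70. With Aβ RNAi the peptide change passed in none of these 4 genes. Each of these calls was lost in 11 or 12 of 25 alternatives, and all 4 held without EV0S repeat 3, where 25.7% of all genes passed. None of the 8 small heat shock protein genes was among them.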

How the results depend on the processing

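Each result was recomputed under other settings and with each library left out in turn. Among the 8 small heat shock protein genes, 2 passed in EVPS over EV0S, 0 in ABPS over AB0S, 0 in the interaction, 3 in AB0S over EV0S and 1 in ABPS over EVPS, and over all genes 1399, 0, 569, 2114 and 52 passed. The AB0S over EV0S count of the 8 genes stayed within 1.5 times under every setting that kept all libraries, and *hsp-16.41* passed in that comparison under each of 20 alternatives. No cause was tested for any of the following shifts.

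With no replicate block, 2490 genes passed in EVPS over EV0S, 7 in ABPS over AB0S, 1785 in the interaction, 3380 in AB0S over EV0S and 920 in ABPS over EVPS, and of the 8 genes 2 passed in the interaction and 2 in ABPS over EVPS. Without the block *hsp-16.2* passed in EVPS over EV0S (adjusted p = 0.0837), which it did not with the block. The deposited values were already corrected for the repeats, so p-values without the block may be too small. With only the 2 groups compared, 0 genes passed in EVPS over EV0S, 2427 in ABPS over AB0S, 791 in AB0S over EV0S and 93 in ABPS over EVPS, and of the 8 genes 0 passed in EVPS over EV0S and 1, *hsp-25*, in ABPS over AB0S. Quantile normalization gave 605 genes in EVPS over EV0S, 1 in ABPS over AB0S, 922 in the interaction and 1100 in AB0S over EV0S, and 1 of the 8 genes in EVPS over EV0S and in the interaction. Under it *hsp-12.3* in EVPS over EV0S (0.0188), *sip-1* in ABPS over AB0S (-0.1017) and in ABPS over EVPS (-0.0252), and *hsp-12.6* in the interaction (0.0433) changed sign, none of which passed.

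Without the mean-variance trend 0 genes passed in EVPS over EV0S, in the interaction and in ABPS over EVPS and 1030 in AB0S over EV0S, and 0 of the 8 genes passed in EVPS over EV0S and ABPS over EVPS. At an adjusted p below 0.05, 4 genes passed in EVPS over EV0S, 0 in the interaction, 656 in AB0S over EV0S and 9 in ABPS over EVPS, and 0 of the 8 genes in EVPS over EV0S and ABPS over EVPS. In the interaction 909 genes passed with a mean of at least 10 and 1304 after TMM rescaling, and with a pseudocount of 0.1, 0 of the 8 genes passed in ABPS over EVPS.

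With the *msp* level in the model, 3333 genes passed in EVPS over EV0S, 3 in ABPS over AB0S, 1467 in the interaction, 123 in AB0S over EV0S and 1942 in ABPS over EVPS, with 2 of the 8 genes in the interaction and 4 in ABPS over EVPS. *hsp-12.2* (-0.1055) and *hsp-12.6* (0.9807) in ABPS over AB0S and *hsp-25* (0.1513), *hsp-12.6* (-0.8581) and *hsp-12.1* (-0.5827) in AB0S over EV0S then changed sign. With the oocyte marker level in the model, 206 genes passed in EVPS over EV0S, 996 in ABPS over AB0S, 3074 in the interaction, 5293 in AB0S over EV0S and 25 in ABPS over EVPS, with 0 of the 8 genes in EVPS over EV0S and 2 in the interaction. In EVPS over EV0S it turned *hsp-16.41* (0.2), *hsp-12.3* (0.7943), *hsp-12.6* (1.491), *hsp-12.1* (1.1587), *F44E5.4* (0.4347) and *F44E5.5* (0.6442), none of which then passed. It also turned *hsp-16.41* (0.0326) and *hsp-12.6* (1.5899) in the interaction, *hsp-43* (-0.0456) and *hsp-17* (-0.1186) in AB0S over EV0S, and *hsp-12.6* (-0.3103) in ABPS over EVPS. The oocyte marker level did not overlap between EVPS and EV0S worms, so it is hard to separate from the peptide there.

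Leaving out 1 library gave 0 to 2633 genes in EVPS over EV0S, 0 to 720 in ABPS over AB0S, 0 to 4908 in the interaction, 10 to 6524 in AB0S over EV0S and 0 to 803 in ABPS over EVPS. Of the 8 genes 0 to 4, 0, 0 to 3, 1 to 6 and 0 to 1 passed in these comparisons. The highest counts in the comparisons with EV0S came without EV0S repeat 3. Log2 changes that crossed 0 were those of *hsp-12.3* (-0.2903 to 0.0525), *hsp-12.6* (-0.633 to 0.4184) and *hsp-43* (-0.1359 to 0.1031) in EVPS over EV0S, and *hsp-12.2* (-0.021 to 0.0918), *hsp-12.6* (-0.499 to 0.2241), *hsp-16.2* (-0.1599 to 0.0522) and *hsp-16.41* (-0.0613 to 0.3675) in ABPS over AB0S. So did *hsp-12.6* (-0.0016 to 1.0497), *hsp-17* (-0.0244 to 0.2454) and *hsp-43* (-0.0208 to 0.2027) in AB0S over EV0S and *hsp-12.6* (-0.518 to 0.5333) in the interaction. Depth is unknown, so what it limits could not be given.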
